A study of Homo sapiens with 8 samples.

Results

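Homologous recombination repairs double-strand breaks in DNA by copying an intact sister chromatid, and the Fanconi anemia pathway unhooks strands that are crosslinked to each other and hands the resulting break to recombination. ATM and ATR sense damage, the MRE11A-RAD50-NBN complex and its partners trim the ends, BRCA1, PALB2 and BRCA2 prepare the single strand for the search of its partner, and helicases and nucleases take the joined molecules apart. In breast cancer the pathway is known for inherited BRCA1 and BRCA2 defects, and many of its genes are transcribed mainly in dividing cells. The 40 genes described here carry these steps. They were chosen by name, with MRE11A as the older symbol of MRE11, and all 40 of 40 were found, 1 row each, among the 55679 gene identifiers of the deposited count table.

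The RNA came from MDA-MB468 and BT549, established lines of triple-negative breast cancer, a type that lacks estrogen and progesterone receptors and amplified HER2. Each line was used as parental cells and as CE cells, a resistant derivative grown in rising concentrations of Acetalax (oxyphenisatin acetate, a diphenolic laxative) that began at 0.2 and ended at 40 μmol/L and was then kept free of drug for 2 weeks. Each of these 4 backgrounds was sequenced without drug, called control, and after exposure for 6 hours to Acetalax at 1 μmol/L, which gives 8 libraries, 1 per condition. The submitters describe the CE cells as resistant clones, and 1 culture per line was sequenced, so that traits of a clone and effects of the long exposure cannot be told apart. The parental and CE backgrounds of a line descend from 1 line.

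The libraries held 42261122 to 54241728 counts on genes, and every member had at least 48 counts in every library. Levels are given in CPM, the counts after scaling to a common library size (here the TMM-scaled size of edgeR, a trimmed mean), and in FPKM, the same per kilobase of merged exons, where genes are compared with each other. The labels of the lines held up in their markers: the summed level of 8 epithelial genes was 9884 to 16944 CPM in the MDA-MB468 and 322 to 567 CPM in the BT549 libraries, and that of 6 mesenchymal genes was 14.2 to 54.4 against 4739 to 10112 CPM. In BT549 most of the epithelial sum was EGFR, 313 of 322 CPM in parental control cells. Of the blood cell markers, CD3E and HBB were at 0 in all 8 libraries, LYZ was under 0.1 CPM, PTPRC was under 1 CPM, and CD14 reached 44.2 CPM in MDA-MB468. Of the receptors, ESR1 was at most 4.92 CPM and PGR at most 0.649 CPM, and ERBB2, which was not low by RNA, was at 43.4 to 92.2 CPM. In bulk RNA such as this, fewer cells that express a gene and less RNA of it per cell cannot be told apart.

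Averaged over the 8 libraries, the members ranged from 0.493 FPKM for RAD51B to 25.3 FPKM for UBE2T, with a median of 3.61 FPKM. UBE2T, the ubiquitin-conjugating enzyme of the Fanconi pathway, was followed by TOPBP1 at 16.9, EXO1 at 16.3, FANCG at 16.3 and CHEK1 at 14.1 FPKM. BRCA1 stood at 3.60, BRCA2 at 1.76, ATR at 2.13 and ATM at 1.18 FPKM. Exons were merged over all annotated transcripts, so a gene with long merged exons has a low FPKM for its counts. FANCL, with 37977 bp of merged exons, had a mean of 24.4 CPM but 0.643 FPKM, and RAD51B, with 7477 bp, had 3.68 CPM. The order of the members by FPKM thus depends on the annotation as well as on their level. RAD51B, a gene of strand exchange, was the 1 member under the mean of 5 CPM that a gene needed to enter the comparison of pairs, and the other 39 passed with 11135 genes in all.

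The first comparison asks what Acetalax did to these genes within 6 hours. Taken over the 4 backgrounds, 5 of the 40 members fell and none rose by edgeR's test, which called 984 genes in all. DESeq2, which called 2678 genes in all, called 9 members lower and 2, EXO1 and XRCC3, higher. The 5 called by edgeR are EME1, a subunit of a nuclease that cuts joined DNA molecules, BRCA2, a mediator of strand exchange, NBN, the regulatory subunit of the break-sensing complex, and the damage kinases ATM and ATR. The model was edgeR's quasi-likelihood test with 1 intercept for each background and 1 Acetalax term, over 19693 genes and with 3 residual degrees of freedom, and a gene counted as changed at a Benjamini-Hochberg adjusted p under 0.05. Over all genes tested, 2.27% were called lower and 2.72% higher. At an unadjusted p under 0.05, 13 members were lower and 3 higher, where 15.5% and 12.5% of all genes were. The fitted log2 fold change was negative for 31 of 40 members and for 53.3% of all genes, and its median was -0.22 for the members and -0.04 for all genes tested.

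The backgrounds serve as the replicates of this test, and the 5 adjusted p-values lay between 0.0385 and 0.0470. Without MDA-MB468 parental cells 0 of the 5 were called (adjusted p from 0.178 to 0.184), without BT549 parental cells 0 (0.0764 to 0.124), without BT549 CE cells 0 (0.0757 to 0.0952) and without MDA-MB468 CE cells 2, BRCA2 and NBN, with PALB2 added to them. Their fold changes were negative in all 4 of these fits, which follows from the 5 genes being lower in each of the 4 pairs and adds no support.

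**Figure D1:**
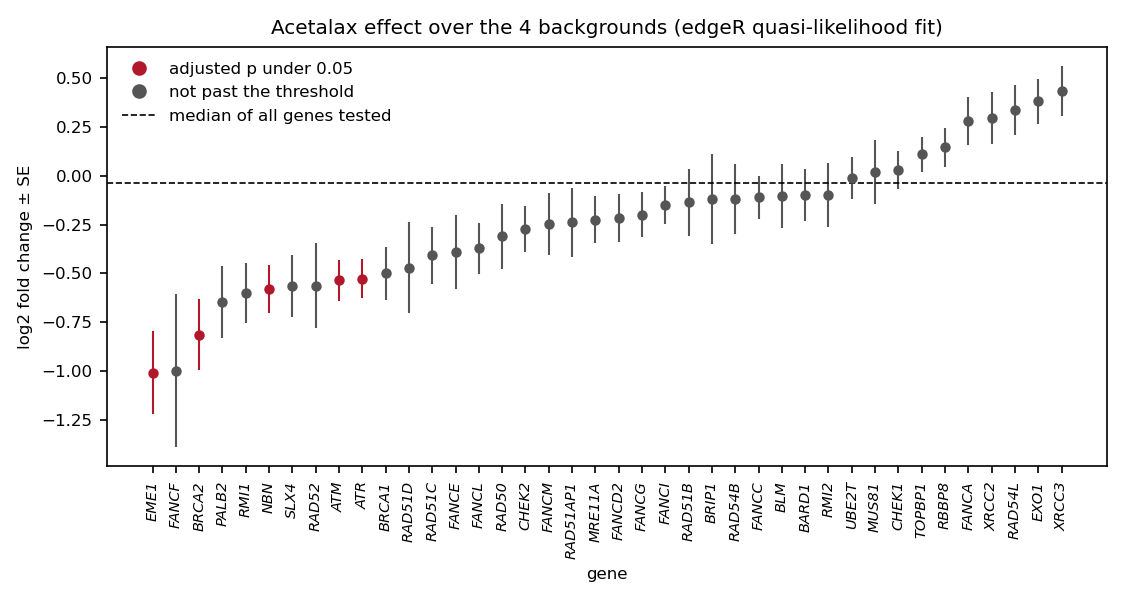
Fitted log2 fold change with its standard error for each of the 40 genes after Acetalax over the 4 backgrounds, with the dashed line at the median of all genes tested, -0.04. The 5 red points, EME1, BRCA2, NBN, ATM and ATR, passed an adjusted p of 0.05 and lie between -1.01 and -0.53, while FANCF has a fold change close to that of EME1 and a wider error.

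Among the BRCA proteins and their partners, BRCA2 fell. Its level (ENSG00000139618, hg19 chr13:32889611-32973805, + strand) went from 36.1 to 23.0 CPM in MDA-MB468 parental, 29.8 to 22.9 in MDA-MB468 CE, 35.0 to 20.04 in BT549 parental and 26.4 to 9.77 in BT549 CE cells. The treated library was the lower one in each of the 4 pairs, and the levels of the lines overlapped. The fitted log2 fold change was -0.81 (SE 0.18, edgeR adjusted p = 0.0470), a level 1.76-fold lower. BRCA1, a ubiquitin ligase subunit that promotes the trimming of ends, went from 46.9 to 34.7 CPM in MDA-MB468 parental, 52.6 to 45.8 in MDA-MB468 CE, 71.7 to 53.5 in BT549 parental and 67.7 to 35.2 in BT549 CE cells. It was lower in all 4 pairs, with a log2 fold change of -0.50 (SE 0.14, edgeR adjusted p = 0.0695), past the threshold in DESeq2 but not in this edgeR fit. PALB2, the bridge between BRCA1 and BRCA2, went from 16.8 to 10.7 CPM in MDA-MB468 parental, 17.5 to 16.9 in MDA-MB468 CE, 28.1 to 16.4 in BT549 parental and 19.6 to 9.15 in BT549 CE cells. Its log2 ratio was -0.05 in CE cells of MDA-MB468 and -1.06 in those of BT549. The fold change over all 4 pairs was -0.65 (SE 0.18, edgeR adjusted p = 0.0761), past the threshold in DESeq2 but not in this edgeR fit. BARD1, the partner of BRCA1 in its ligase, had log2 ratios of 0.06 and 0.07 in MDA-MB468 parental and CE cells and of -0.08 and -0.45 in those of BT549. The helicase BRIP1 moved in opposite directions in the lines, with log2 ratios of 0.47 and 0.22 in MDA-MB468 and -0.24 and -0.92 in BT549 cells.

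The 9 genes of strand exchange, which help a single strand to invade its partner or anneal to it, had fold changes of both signs, and edgeR called none. XRCC3, which acts in strand exchange, had the largest fold change upward of all 40 members. It went from 6.48 to 9.77 CPM in MDA-MB468 parental, 7.05 to 9.29 in MDA-MB468 CE, 29.4 to 35.0 in BT549 parental and 19.5 to 27.5 in BT549 CE cells, higher in all 4 pairs, with a log2 fold change of 0.43 (SE 0.13, edgeR adjusted p = 0.0834), past the threshold in DESeq2 but not in edgeR. Of the bases in its exons, 76.7% lie opposite exons of KLC1, a kinesin light chain gene, whose own log2 fold change was 0.41 (SE 0.11, edgeR adjusted p = 0.0702). The strand column that was counted is not given in the sources used here, so the share of KLC1 reads in the XRCC3 counts is unknown. RAD54L, a motor protein that moves along DNA, went from 33.8 to 40.5 CPM in MDA-MB468 parental, 31.6 to 33.2 in MDA-MB468 CE, 45.2 to 72.9 in BT549 parental and 34.1 to 42.9 in BT549 CE cells, also higher in all 4 pairs (0.34 (SE 0.13, edgeR adjusted p = 0.137)). RAD52, which anneals single strands, and RAD51D had their lowest log2 ratios in BT549 CE cells, -1.18 and -1.16. RAD51C was lower in all 4 pairs, from -0.60 in MDA-MB468 parental to -0.04 in MDA-MB468 CE cells.

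In the group that senses breaks and resects ends, NBN fell and was the 1 gene that edgeR called. NBN (ENSG00000104320, hg19 chr8:90945564-91015456, - strand) went from 53.9 to 33.4 CPM in MDA-MB468 parental, 48.4 to 42.0 in MDA-MB468 CE, 134 to 87.7 in BT549 parental and 103 to 58.6 in BT549 CE cells. All 4 treated libraries were below their controls, and the 4 BT549 libraries were above the 4 of MDA-MB468 by level. The log2 fold change was -0.58 (SE 0.12, edgeR adjusted p = 0.0432), and the ratio was smallest in MDA-MB468 CE cells, at -0.20. The other subunits of the complex, RAD50 and MRE11A, had log2 fold changes of -0.31 (SE 0.17) and -0.22 (SE 0.12) and were not called. EXO1, an exonuclease that extends resection, went from 49.6 to 80.4 CPM in MDA-MB468 parental, 41.2 to 47.1 in MDA-MB468 CE, 86.1 to 113 in BT549 parental and 55.9 to 65.9 in BT549 CE cells. It was higher in all 4 pairs, with its largest ratio, 0.69, in MDA-MB468 parental cells, and its log2 fold change was 0.38 (SE 0.11, edgeR adjusted p = 0.0836). DESeq2 called it higher. RBBP8, known as CtIP, the factor that starts resection, went from 59.9 to 72.4 CPM in MDA-MB468 parental, 61.6 to 63.3 in MDA-MB468 CE, 72.8 to 73.0 in BT549 parental and 42.9 to 51.5 in BT549 CE cells. That is also higher in all 4 pairs, but its log2 ratio was 0.00 in BT549 parental cells, and a pseudogene copy (1 in the annotation) makes its counts uncertain.

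ATM and ATR, the apical kinases of the damage response, both fell. ATM (ENSG00000149311, hg19 chr11:108093211-108239829, + strand) went from 41.6 to 27.5 CPM in MDA-MB468 parental, 41.1 to 26.0 in MDA-MB468 CE, 54.4 to 42.5 in BT549 parental and 80.5 to 55.9 in BT549 CE cells. ATR (ENSG00000175054, hg19 chr3:142168077-142297668, - strand) went from 61.8 to 39.7 CPM in MDA-MB468 parental, 72.7 to 57.2 in MDA-MB468 CE, 71.3 to 48.9 in BT549 parental and 66.9 to 44.9 in BT549 CE cells. In each of the 4 backgrounds both kinases were lower after Acetalax. The log2 fold changes were -0.53 (SE 0.10, edgeR adjusted p = 0.0406) for ATM and -0.53 (SE 0.10, edgeR adjusted p = 0.0385) for ATR, which had the smallest adjusted p of the 40 members. The smallest of the 4 ratios was -0.35 for ATM, in BT549 parental cells, and -0.34 for ATR, in MDA-MB468 CE cells. The kinases that act below them were not called: CHEK1, the target of ATR, had a log2 fold change of 0.03 (SE 0.10), and CHEK2, the target of ATM, one of -0.27 (SE 0.12, edgeR adjusted p = 0.181) with all 4 ratios negative. TOPBP1, the activator of ATR, was at 0.11 (SE 0.09).

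**Figure D2:**
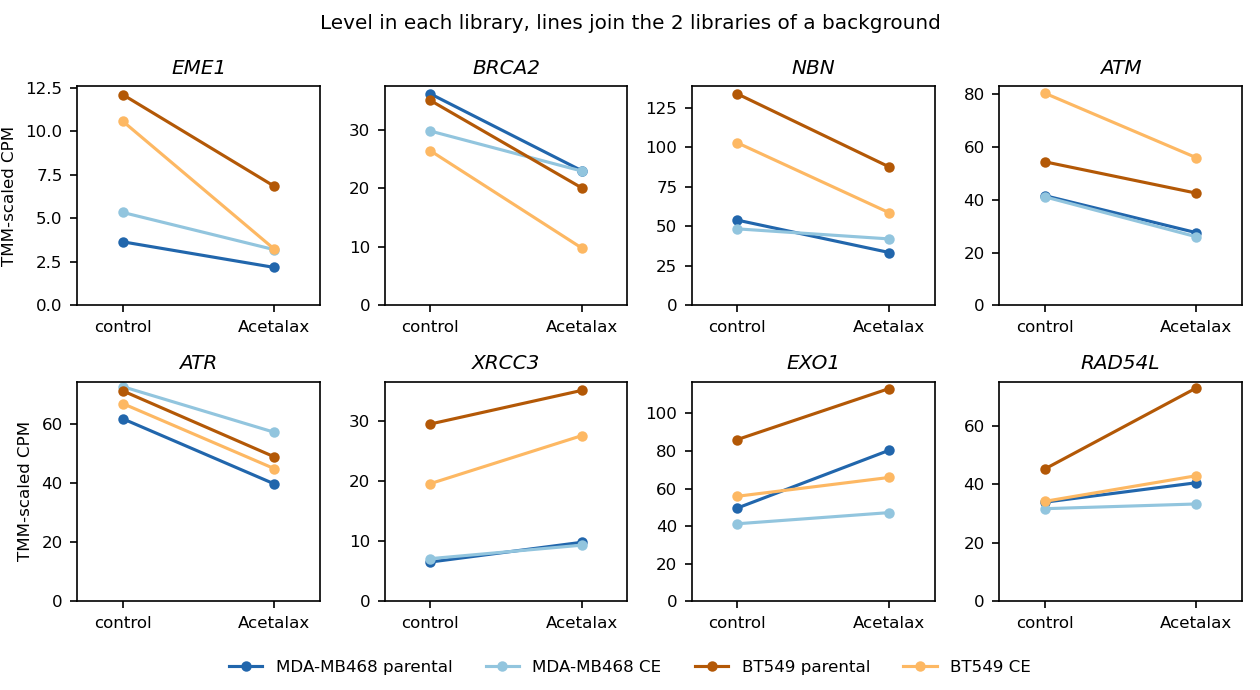
Level in TMM-scaled CPM of 8 genes in the control and the Acetalax library of each background, 1 library per point, with lines joining the libraries of a background. EME1, BRCA2, NBN, ATM and ATR slope down in all 4 backgrounds, and XRCC3, EXO1 and RAD54L slope up.

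EME1, the partner of the nuclease MUS81, had the largest fall among the called members. It is a gene of low level (ENSG00000154920, hg19 chr17:48450581-48458844, + strand) and went from 3.65 to 2.17 CPM in MDA-MB468 parental, 5.34 to 3.19 in MDA-MB468 CE, 12.1 to 6.83 in BT549 parental and 10.6 to 3.22 in BT549 CE cells. Its counts in BT549 CE cells were 554 without drug and 141 with it. The smallest of its 4 log2 ratios was -0.63, in MDA-MB468 parental cells, and the fitted fold change was -1.01 (SE 0.21, edgeR adjusted p = 0.0439), 2.01-fold lower. Exons of LRRC59 on the opposite strand cover 16.4% of its exon bases, and LRRC59 was called higher, with a log2 fold change of 0.59 (SE 0.09, edgeR adjusted p = 0.0327). MUS81 itself was not called, and its log2 ratios were 0.42, 0.25, -0.04 and -0.56. RMI1, a subunit of the BLM complex that dissolves joined molecules, and SLX4, a scaffold for nucleases, were lower in all 4 pairs (-0.60 (SE 0.15, edgeR adjusted p = 0.0603) and -0.57 (SE 0.16, edgeR adjusted p = 0.0750)). Both passed the threshold in DESeq2. BLM, the helicase of that complex, had a log2 fold change of -0.10 (SE 0.16).

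No gene of the Fanconi core complex passed the test, although 4 of its 7 genes, FANCC, FANCF, FANCG and FANCL, were lower in all 4 pairs. FANCL, the ubiquitin ligase subunit, went from 37.7 to 31.5 CPM in MDA-MB468 parental, 39.8 to 32.7 in MDA-MB468 CE, 14.9 to 12.5 in BT549 parental and 16.2 to 9.99 in BT549 CE cells (-0.37 (SE 0.13, edgeR adjusted p = 0.120)). FANCF, an adaptor of the core complex, had the lowest single ratio of all members: its counts in BT549 CE cells were 361 without drug and 48 with it, a log2 ratio of -2.21 with the 0.5 CPM that was added to both levels. Without that addition the log2 ratio was -2.65, with a 95% counting interval of -3.12 to -2.22, which is exact binomial and like the others covers counting error only. In MDA-MB468 CE cells its ratio was -0.01, and the fold change over the 4 pairs was -0.997 (SE 0.39, edgeR adjusted p = 0.150). FANCA, another core subunit, had positive ratios in 3 pairs, up to 0.60 in MDA-MB468 parental cells, and 19.6% of its exon bases lie opposite ZNF276.

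The substrates of the core complex, FANCD2 and FANCI, were not called. FANCD2 went from 26.5 to 23.6 CPM in MDA-MB468 parental, 30.3 to 25.8 in MDA-MB468 CE, 85.0 to 89.5 in BT549 parental and 64.0 to 44.3 in BT549 CE cells. FANCI went from 94.1 to 91.4 CPM in MDA-MB468 parental, 101 to 94.7 in MDA-MB468 CE, 141 to 135 in BT549 parental and 119.6 to 90.7 in BT549 CE cells. FANCI was lower in all 4 pairs and FANCD2 in 3, and outside BT549 CE cells neither ratio went below -0.23. The log2 fold changes were -0.21 (SE 0.12) for FANCD2 and -0.15 (SE 0.10) for FANCI.

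By background, the median of the members lay furthest below 0 in BT549 CE cells. The median log2 ratio of the 40 members was -0.21 in MDA-MB468 parental, -0.04 in MDA-MB468 CE, -0.15 in BT549 parental and -0.49 in BT549 CE cells. Over the 11135 genes compared it was -0.04, 0.02, -0.03 and -0.03. In BT549 CE cells 13 members were lower by at least 1.5-fold and 0 higher, where 16.9% of all genes were lower and 12.0% higher by that much. With total-count scaling 24 members and 22.8% of genes were lower by that much. In BT549 parental cells 7 were lower and 1 higher (6.65% and 4.59% of genes), in MDA-MB468 parental cells 8 and 2 (8.6% and 10.6%) and in MDA-MB468 CE cells 3 and 0 (4.3% and 6.6%). With 1 library per condition these ratios have no replicate check. Their counting error was small, with a median half-width of the 95% interval of 0.107 to 0.126 on the log2 scale.

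The direction was the same in all 4 pairs for 22 members. Of these, 18 were lower, 45% of the members against 22.1% of genes, and 4 were higher, XRCC3, EXO1, RAD54L and RBBP8, 10% of the members against 19.5% of genes. By role, 3 of 5 BRCA genes, 2 of 9 strand exchange genes, 2 of 5 resection genes, 3 of 5 checkpoint genes, 3 of 6 junction genes, 4 of 7 core complex genes and 1 of 3 genes of the last Fanconi step were lower in all 4.

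**Figure D3:**
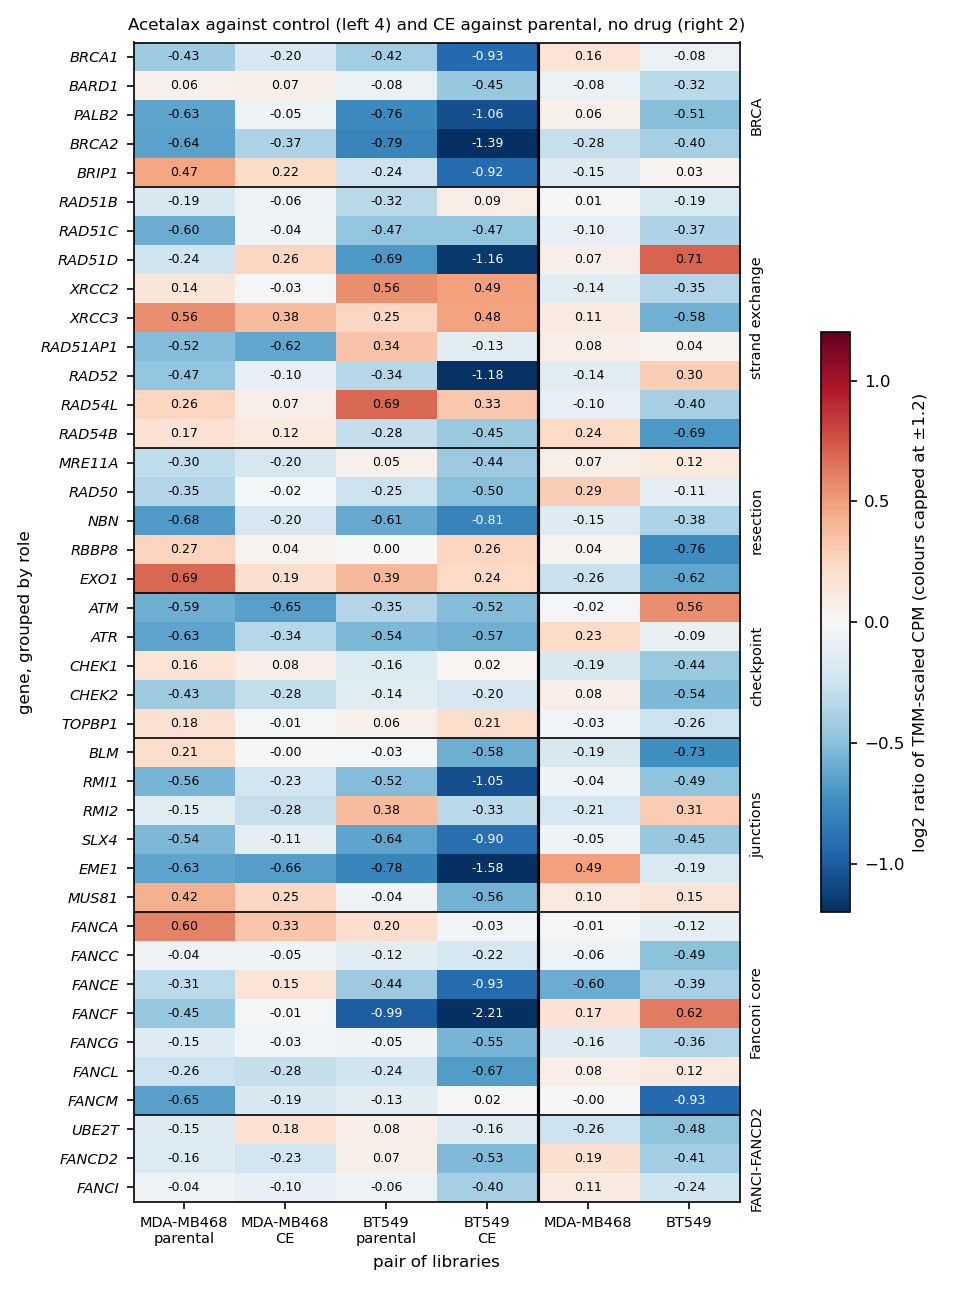
Log2 ratio of TMM-scaled CPM of each gene, by role, after Acetalax in the 4 backgrounds (left 4 columns) and in CE against parental cells without drug (right 2 columns). Blue prevails in the BT549 CE column, with 31 of 40 ratios negative, and the rows of EME1, BRCA2, NBN, ATM and ATR are blue in all 4 Acetalax columns.

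Whether parental and CE cells, or the lines, responded differently was tested by the difference itself. For CE minus parental cells edgeR called 0 of 19693 genes (91 at an unadjusted p under 0.05, none of them a member), and no member was called by DESeq2 either. In the same fit, with 2 residual degrees of freedom, the Acetalax term of parental cells gave 0 calls and that of CE cells 0, against 75 and 289 genes in DESeq2, also with no member. At an unadjusted p under 0.05, 6 members were lower and 2 higher in parental cells, where 4.00% and 4.68% of all genes were (1710 genes), and 7 lower and 0 higher in CE cells, where 6.02% and 5.72% were (2311 genes). For BT549 minus MDA-MB468 cells, 1.25% of genes were called lower and 0.533% higher, and 0 members. At an unadjusted p under 0.05, 4 members were lower and 2 higher, where 10.4% and 6.89% of all genes were. Those nearest to the threshold were FANCF, with a difference of -1.65 (SE 0.46, edgeR adjusted p = 0.132), RAD51D, with -0.97 (SE 0.28, edgeR adjusted p = 0.143), and BRIP1, with -0.96 (SE 0.28, edgeR adjusted p = 0.147). DESeq2 called 3 members lower there, among 926 genes called in all, where edgeR called 351.

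Few genes of the neighbouring pathways were called over the 4 backgrounds. Of 43 further recombination and Fanconi genes, 39 were tested and edgeR called 0 (8 lower and 4 higher at an unadjusted p under 0.05, and 5 called by DESeq2). Of 18 genes of break signalling and end protection, 1 was called, RAD17, which loads a checkpoint clamp, with -0.69 (SE 0.15, edgeR adjusted p = 0.0463). Of 11 genes of non-homologous end joining, the other main route of break repair, edgeR called 0 (2 lower and 0 higher at an unadjusted p under 0.05, and 0 called by DESeq2). Their median log2 ratios were -0.10, 0.02, -0.20 and -0.23 in MDA-MB468 parental, MDA-MB468 CE, BT549 parental and BT549 CE cells.

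The lists of cell cycle genes differed: the medians were below 0 for G2 and mitosis and near or above 0 for G1-S and replication. In the list of 30 genes of G2 and mitosis, 2 were called lower, HMMR and KIF20A, both spindle genes, and 20 were lower at an unadjusted p under 0.05, with none higher. Of all genes tested, 15.5% were lower and 12.5% higher at that p. The median log2 ratios of the list were -0.72, -0.27, -0.07 and -0.57 in MDA-MB468 parental, MDA-MB468 CE, BT549 parental and BT549 CE cells. In the list of 32 genes of G1-S and replication, 31 were found and 2 were called higher, CDC6 and FEN1, both replication genes. At an unadjusted p under 0.05, 6 of this list were higher and 3 lower. Its medians in the same order were 0.06, 0.01, 0.18 and 0.07. The members' median was above that of the G2 and mitosis list in MDA-MB468 parental, MDA-MB468 CE and BT549 CE cells and below it in BT549 parental cells. The part of a change in cell cycle phase in the members' values was not tested.

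**Figure D4:**
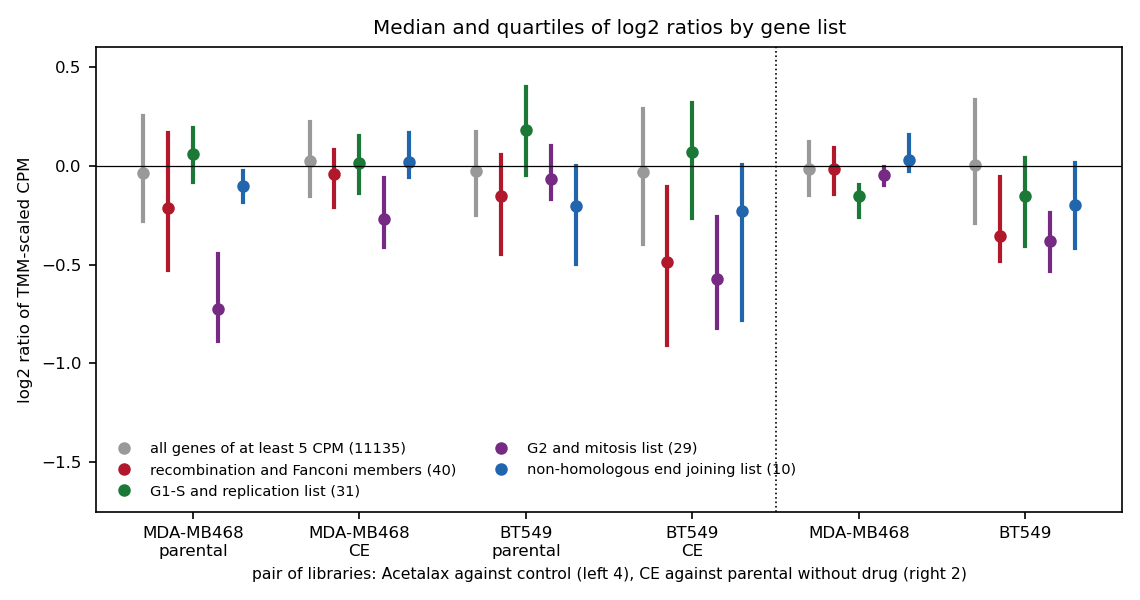
Median log2 ratio (points) with the range from the lower to the upper quartile of the genes (bars) for the members, 3 other gene lists and all genes of at least 5 CPM, in the 4 Acetalax pairs and in CE against parental cells without drug. The members lie below all genes in the 4 Acetalax pairs and in BT549 CE against parental cells, and the list of G1-S and replication stays near or above 0 after Acetalax.

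Promoters of the members were read for letters of known cell cycle elements, since several of the genes moved together. The sequences are from RefSeq (GRCh38.p14), 250 bases before to 50 after each start, and 36 of the 40 members had at least 1. Letters of the E2F type, which mark many genes of the G1-S phase (TTTCCCGC, TTTGGCGC, TTTGCCGC or TTTCGCGC, on either strand), were in 7 of the 36, 19.4%, against 3.99% of all 27305 genes with a promoter and 6.77% of the 8803 protein-coding genes that were also compared. The 7 are shown with the letters in capitals (on the other strand where they begin with G), 30 bases each, in the direction of the gene:
EXO1 (chr1:241848197-241848226, + strand): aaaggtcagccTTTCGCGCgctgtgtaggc
FANCD2 (chr3:10026424-10026453, + strand): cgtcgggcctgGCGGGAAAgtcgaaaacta
TOPBP1 (chr3:133661930-133661959, - strand): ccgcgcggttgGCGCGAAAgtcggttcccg
XRCC2 (chr7:152676102-152676131, - strand): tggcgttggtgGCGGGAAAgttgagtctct
RMI1 (chr9:83980762-83980791, + strand): ggcgcgagcgcGCGGCAAAtcgggcgggaa
FANCC (chr9:95317737-95317766, - strand): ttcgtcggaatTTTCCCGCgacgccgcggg
FANCA (chr16:89816801-89816830, - strand): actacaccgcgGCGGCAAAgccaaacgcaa
Of these 7, 3 had a negative Acetalax fold change and the median was 0.11 on the log2 scale. Of the 29 members with a promoter that lacks the letters, 24 had a negative one and the median was -0.27, and 4 of them were called lower. Of the genes tested with a promoter and a mean of at least 5 CPM, 606 had the letters and 8385 lacked them. Their medians were -0.01 with and -0.01 without the letters, and 0.990% with and 3.11% without them were called lower. These are descriptions of letters in a window, with no test.

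None of the called members with a promoter in the table, EME1, BRCA2, ATM and ATR, had letters of the E2F type there. The 60 bases before their first listed start are shown, with TTTGAA, the core letters of the CHR element of mitotic genes, in capitals where they occur:
EME1 (chr17:50373169-50373228, + strand): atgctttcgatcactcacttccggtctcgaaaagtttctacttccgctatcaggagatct
BRCA2 (chr13:32315448-32315507, + strand): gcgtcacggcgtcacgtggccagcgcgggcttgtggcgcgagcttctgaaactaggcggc
ATM (chr11:108223007-108223066, + strand): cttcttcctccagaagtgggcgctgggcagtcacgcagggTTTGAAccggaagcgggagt
ATR (chr3:142578734-142578793, - strand): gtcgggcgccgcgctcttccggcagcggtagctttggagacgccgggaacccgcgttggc
TTTGAA on either strand was in the promoters of 4 of the 36 members, 11.1%, against 18.2% of all genes and 13.6% of the protein-coding genes compared. CCAAT on either strand was in 17 of them, 47.2%, against 39.7% and 43.7%. FANCC holds a further match of the E2F type that is not shown, and members with several listed starts were counted by any of them.

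Many members share their promoter region with a neighbour. A protein-coding gene that starts within 1000 bp and runs the other way was found for 16 of the 40 members, 40%, and for 18.1% of the 10707 protein-coding genes compared. Of these neighbours 13 were tested, 0 were called, and 6 had a negative Acetalax fold change, with a median of 0.01. NPAT, a histone gene regulator that starts 158 bp from ATM, had a log2 fold change of 0.33 (SE 0.12), where that of ATM was -0.53. MRPL27, a mitochondrial ribosomal gene that starts 6 bp from EME1, was at 0.06 (SE 0.13), and DCTN5, a dynactin gene 82 bp from PALB2, at 0.14 (SE 0.09). The neighbour of SLX4, the nuclease gene DNASE1, was at -0.63 (SE 0.17, edgeR adjusted p = 0.0727), close to SLX4 itself at -0.57.

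The members are long genes by genomic span, with a median of 67421 bp against 33425 bp over the genes compared. Of the called members, exons merged over all annotated transcripts covered 39184 bp for ATM, 27234 for ATR, 19417 for NBN and 14426 for BRCA2, but 3294 for EME1. They covered 37977 bp for FANCL, which was not called, and the median of the members compared was 7507 bp. Among members above this median, 18 of 19 had a negative Acetalax fold change and 4 were called lower, and among the 20 at or below it 12 were negative and 1 was called. Over all genes compared, 52.7% above that length and 50.3% at or below it were negative, and 3.86% and 2.53% were called lower. The members' median log2 fold change was -0.31 above and -0.11 at or below 7507 bp. Split instead by genomic span, at a member median of 64950 bp, it was -0.21 above and -0.24 at or below. By span, 17 of 19 and 13 of 20 members were negative, and 4 and 1 were called lower, against 3.43% and 2.75% of genes compared. The part of length in the members' values was not tested.

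The second comparison asks how CE cells differ from parental cells without drug. In MDA-MB468 the median log2 ratio of CE control to parental control was -0.02, as over all genes compared (-0.02), with 1 member lower by at least 1.5-fold and 0 higher (3.75% and 3.46% of genes). In BT549 the median was -0.36 for the members and 0.00 for all genes, with 5 members lower and 2 higher (10.6% and 14.6% of genes). Over both lines edgeR called 0 of 18377 genes in the 4 control libraries (610 at an unadjusted p under 0.05, 0 of them members; DESeq2 called 46 genes and 0 members). This fit has 1 residual degree of freedom. Of the members, 18 were lower in CE cells of both lines, 45% against 29.2% of genes, and 6 were higher in both, 15% against 25.2%.

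Ranked by the smaller of the 2 ratios, the members lowest in both lines were FANCE, BRCA2 and EXO1. FANCE, a core complex subunit that binds FANCD2, was at 35.7 CPM in parental and 23.5 in CE control cells of MDA-MB468 and at 15.3 and 11.5 in BT549. Its log2 ratios were -0.60 and -0.39, those of BRCA2 -0.28 and -0.40, and those of EXO1 -0.26 and -0.62. Those highest in both by the same rule were FANCF, with 0.17 and 0.62, MUS81, with 0.10 and 0.15, and FANCL, with 0.08 and 0.12, while RAD51D had 0.07 and 0.71. MUS81 was at 52.3 and 56.2 CPM in MDA-MB468 and at 59.3 and 66.1 in BT549 parental and CE control cells. FANCF, then, was higher in BT549 CE than in parental cells without drug, 6.90 against 4.30 CPM, and lower with drug, 1.10 against 1.91 CPM.

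The difference between the lines was tested next, a comparison added after these values had been seen. With both the control and the Acetalax libraries in the fit (4 blocks of line and treatment, 2 residual degrees of freedom), the change from parental to CE cells was lower in BT549 than in MDA-MB468 for 5 of the 40 members and higher for 0. Over 19693 genes, edgeR called 4.91% lower and 7.3% higher in the same test. Each line had 1 CE derivative, compared with its parental cells once without drug and once with Acetalax. The p-values thus measure the spread between these conditions, not between separate CE derivations. The difference was negative for 37 of 40 members and 51.4% of genes, with a median of -0.48 against -0.02. At an unadjusted p under 0.05 it was lower for 18 members and higher for 1, ATM, where 12.8% of genes were lower and 14.3% higher.

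The 5 called were FANCM, the helicase that anchors the core complex to DNA, RAD54B, a motor protein related to RAD54L, PALB2, FANCD2 and the checkpoint kinase CHEK2. FANCM was at 11.9 and 11.8 CPM in parental and CE control cells of MDA-MB468 and at 24.0 and 12.4 in BT549, and with Acetalax at 7.40 and 10.3 and at 21.9 and 12.5. The lines thus differed in their change under both conditions, by -1.12 (SE 0.26, edgeR adjusted p = 0.0293) on the log2 scale. RAD54B was at 3.51 and 4.22 CPM in MDA-MB468 and 12.9 and 7.81 in BT549 control cells, and with Acetalax at 4.02 and 4.64 and at 10.5 and 5.59. Its CE level was above the parental one in MDA-MB468 and below it in BT549 under both conditions, a difference of -1.06 (SE 0.26, edgeR adjusted p = 0.0401). For PALB2 the difference was -1.04 (SE 0.28, edgeR adjusted p = 0.0493), for FANCD2 -0.87 (SE 0.23, edgeR adjusted p = 0.0476) and for CHEK2 -0.74 (SE 0.20, edgeR adjusted p = 0.0489). CHEK2 went from 28.8 to 30.5 CPM from parental to CE control cells in MDA-MB468 and from 32.0 to 21.8 in BT549, and with Acetalax from 21.2 to 24.99 and from 28.9 to 18.9. CHEK2 has 4 pseudogene copies and FANCD2 has 1, so reads may be lost or misplaced in both. Without the MDA-MB468 Acetalax libraries 0 members were called, without those of BT549 1, FANCM, and without the MDA-MB468 controls 2, FANCM and PALB2. Without the BT549 controls 8 were called, among them RAD54B, PALB2 and FANCD2 but not FANCM or CHEK2. CHEK2 also lost its call with RLE scaling and without the filter on low counts.

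With Acetalax in both, lower levels in BT549 CE cells were widespread among the members. Against treated parental cells, 37 of 40 members were lower in treated CE cells, against 48.1% of genes, 19 of them by at least 1.5-fold, where 13.2% of genes were, and the median log2 ratio was -0.58 against 0.01 over all genes. BLM was lowest, at -1.29, followed by RMI1 at -1.02, FANCD2 at -1.01 and BRCA2 at -1.001. In MDA-MB468 the same ratio had a median of 0.05, with 1 member lower and 3 higher by at least 1.5-fold (7.6% and 6.16% of genes). The G2 and mitosis list moved alongside, with a median of -0.83 in BT549 and 0.41 in MDA-MB468 with Acetalax and of -0.38 and -0.05 without it, and the part of the cell cycle was not tested here either. These ratios share libraries with the Acetalax pairs above and are not independent of them.

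**Figure D5:**
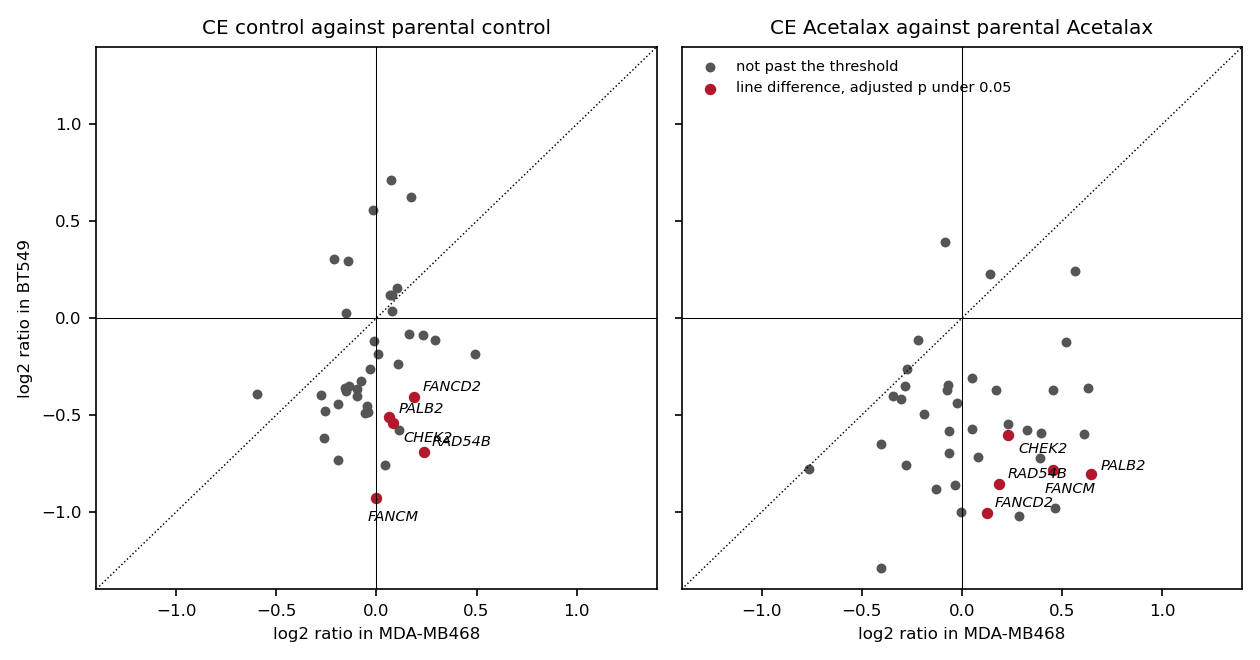
Log2 ratio of CE to parental cells in BT549 (vertical) against MDA-MB468 (horizontal) for the 40 genes, without drug (left) and with Acetalax (right), with the dotted line where the lines are equal. Red points are the 5 genes whose line difference passed an adjusted p of 0.05, and with Acetalax 37 of 40 points lie below 0 in BT549.

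By level, the lines differed without overlap for 16 members. The 4 BT549 libraries were all above the 4 of MDA-MB468 for 10 members, 25% against 29.3% of genes, and all below for 6, 15% against 27.0%. The libraries of a line are 1 line under 4 conditions, so this has no test. XRCC3 had the widest gap on the BT549 side, 19.5 to 35.0 CPM against 6.48 to 9.77, followed by FANCD2, with 44.3 to 89.5 against 23.6 to 30.3, and RAD51B, with 3.90 to 5.01 against 2.59 to 3.05. On the MDA-MB468 side they were FANCL, with 31.5 to 39.8 CPM against 9.99 to 16.2, FANCE, with 23.5 to 35.7 against 5.82 to 15.3, and BARD1, with 33.3 to 36.7 against 14.9 to 25.7. The remaining 24 members overlapped, among them BRCA1, BRCA2, PALB2 and ATR.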

How the data were processed

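RNA was poly(A) selected, made into directional libraries and sequenced as paired reads. Alignment to hg19 was by STAR (2.7.11b per the submitters' processing notes), and the authors deposited its GeneCounts output, raw whole-number counts per gene that are not normalized. Annotation and strand column are not given in the sources used here, and reads that fit several places are not counted. The table has 58154 rows, of which repeats of 1392 identifiers were dropped. At 1 CPM a gene has 42.3 to 54.2 counts. Groups came from the sample titles.

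CPM used TMM-scaled library sizes, FPKM merged exon lengths, and pair ratios log2(CPM + 0.5), so ratios of low genes are understated. Pair ratios carry 95% exact conditional binomial intervals and no test. Fits used the quasi-likelihood test of edgeR 4.0.16 under R 4.3.3 (filterByExpr, Benjamini-Hochberg over all genes tested), with each background as a block in the Acetalax fits. DESeq2 1.42.0, other scalings, pseudocounts, filters and left-out backgrounds were alternatives. Some of the fits were also run on simulated counts. The simulated spread was below that of the data for the Acetalax fit over the 4 backgrounds and the CE control fit, so no support is drawn from it. Genes whose values are given in every library were the called ones, those with the same sign in all pairs and the largest smallest ratio, those with the widest gap between lines, and BRCA1, BRCA2, PALB2, ATM, ATR, FANCD2 and FANCI. Members and lists were chosen with earlier results of these data known. Labels do not say that libraries came from separate cultures, so p-values measure the spread between these libraries. Promoters came from RefSeq, GRCh38.p14.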

Additional observations from a re-analysis of the deposited data

Results flagged for a closer look

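The change from parental to CE cells differed between the lines for 5 members, by edgeR's test of the difference itself, which was added after the values had been seen. Its replicates are the control and the Acetalax pair of 1 CE derivative per line, not separate derivations. The log2 difference, BT549 minus MDA-MB468, was -1.12 for FANCM, -1.06 for RAD54B, -1.04 for PALB2, -0.87 for FANCD2 and -0.74 for CHEK2, with adjusted p-values of 0.0293, 0.0401, 0.0493, 0.0476 and 0.0489. FANCM was negative in BT549 in both the control and the Acetalax libraries (log2 ratios -0.93 and -0.78) and at -0.00 and 0.45 in MDA-MB468. PALB2 had -0.51 and -0.80 in BT549 and 0.06 and 0.64 in MDA-MB468. FANCD2 had -0.41 and -1.01 against 0.19 and 0.12, with the lower value in BT549 under each condition. All 5 lost their call without the MDA-MB468 Acetalax libraries (adjusted p from 0.128 to 0.273). The cell cycle lists and the markers of the BT549 CE cells moved in the same libraries, and their part in these values was not tested. From BT549 parental to CE control cells, SPARC went from 438 to 3571 CPM and COL1A2 from 1043 to 4667 CPM. The other 4 of the 6 mesenchymal markers were lower. VIM went from 1324 to 895, FN1 from 1625 to 614, CDH2 from 222 to 113 and ZEB1 from 85.9 to 60.6 CPM. Of the epithelial markers, KRT8 went from 1.25 to 35.6, KRT18 from 6.66 to 49.7 and KRT19 from 0.64 to 4.30 CPM. EGFR went from 313 to 259 CPM, and CDH1, EPCAM, KRT5 and KRT6A were at most 0.993 CPM in these libraries.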

How the results depend on the processing

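Over the 4 backgrounds the 5 calls of Acetalax were kept with RLE and with total-count scaling. Without the filter on low counts edgeR called 10 members lower and 1 higher (3585 genes), and DESeq2 9 and 2 (2678 genes, against 984). Without the replicate block of the backgrounds 0 members and 0 genes were called. Leaving out 1 background gave 0 to 3 members lower and 0 to 554 genes. In parental cells no filter gave 643 genes, DESeq2 75 and leave-one-out fits 0 to 182, against 0. In CE cells no filter gave 3 members lower and 1080 genes, DESeq2 289 and leave-one-out fits 0 to 207 genes, against 0. For CE minus parental no filter gave 3 genes. For BT549 minus MDA-MB468, no filter and DESeq2 gave 3 members lower (1632 and 926 genes, against 351), and leave-one-out fits 0 to 4 members and 100 to 1360 genes. For CE against parental controls, no filter gave 45 genes, DESeq2 46 and a CE term over all 8 libraries 23, against 0, with 0 members in each. For the line difference of CE, DESeq2 added 1 member higher, and leave-one-out fits gave 0 to 8 members lower and 1302 to 2906 genes, against 2404.

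Total-count scaling lowered the median of all genes in BT549 CE cells after Acetalax to -0.17, that of the members to -0.63 and put 24 members and 22.8% of genes past 1.5-fold lower, against 13 and 16.9%. The difference between members and genes was then -0.47 against -0.46. It also gave 1 member higher in MDA-MB468 parental cells and in BT549 CE against parental controls and 0 lower in the MDA-MB468 controls. On the log2(FPKM + 1) scale of the study, which shrinks ratios at these levels, members past 1.5-fold were 1 higher and 0 lower in MDA-MB468 parental, 1 lower in MDA-MB468 CE and 0 higher and 2 lower in BT549 parental cells after Acetalax, 0 lower in the MDA-MB468 controls and 0 higher and 2 lower in the BT549 controls. A pseudocount of 1 CPM gave 5 lower in MDA-MB468 parental cells and 1 higher in the BT549 controls. The cause of these shifts was not tested further. No named member reversed its direction in a called value.

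Limits: 1 library per condition, 4 backgrounds from 2 lines as the replicates, 1 to 3 residual degrees of freedom, and an unknown strand setting for genes that overlap on opposite strands. Depth is not what limits most values: the counting half-width was 0.103 to 0.126 log2 units in the median member.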
